A study of Mus musculus with 3 samples.

Results

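Alternative splicing of chromatin modifier and remodeler genes was examined in the hippocampus of mice that carried short or expanded CUG repeats. The genes were chosen by symbol and comprised the histone lysine demethylases (Kdm), the methyltransferases (Kmt and Setd), the histone deacetylases (Hdac), the lysine acetyltransferases (Kat), the CHD and SWI/SNF or ISWI remodelers (Chd and Smarc), and the PHD-finger (Phf), bromodomain (Brd) and ING proteins. Of 8727 splicing events in 4860 genes, 100 events in 56 genes met this rule. They were 76 of 6532 skipped exons, 7 of 622 alternative 5' splice sites, 13 of 942 alternative 3' splice sites, 2 of 422 pairs of mutually exclusive exons and 2 of 209 retained introns.

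The study used male C57BL/6J wild type mice, 10 weeks old per the labels, and injected adeno-associated virus of serotype 9 (AAV9) into the CA1 region of both hippocampi. The virus carried an Egfp gene with 10 or 300 CTG repeats in the untranslated region at the end of its mRNA, so that CUG10 and CUG300 mice transcribed short and expanded CUG repeats from a transgene and not from the mouse Dmpk gene. CWG-cPIP, a cyclic pyrrole-imidazole polyamide designed to bind CAG and CTG repeat DNA, was given in the same injection as the virus. The CUG10 mouse received vehicle (CUG10 + vehicle), and the CUG300 mice received vehicle (CUG300 + vehicle) or the compound (CUG300 + CWG-cPIP), all of them AAV9-injected, with 1 mouse per group. RNA came from hippocampal tissue 10 days after gene transfer, and the sources name no sort for cells that the virus had reached.

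Chromatin proteins of these families write, erase or read chemical marks on histones, or use ATP to slide and evict nucleosomes. Most work as subunits of large complexes such as BAF (the mammalian SWI/SNF complex), NuRD, SAGA and NuA4, and several complexes exchange subunits as neurons mature. In myotonic dystrophy type 1, expanded CUG RNA binds and sequesters the splicing factors of the muscleblind-like (MBNL) family, which recognize short GC-centred motifs in pre-mRNA. Exons or splice sites in chromatin genes can change a protein domain, add or remove single residues, or send a transcript to nonsense-mediated decay (NMD).

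Inclusion was expressed as percent spliced in (PSI), the fraction of inclusion reads after the inclusion and skipping counts were each divided by the effective length of their form. Most PSI values are given with their counts of inclusion and skipping reads or with their total reads. The 95% Clopper-Pearson interval of a PSI and the 95% Newcombe interval of a PSI difference treat each read as independent. They cover the counting error of reads only and no spread between mice. The reads had no molecular identifiers, so copies of the same molecule could not be told apart and the intervals may be too narrow. Since each group was a single mouse, replicates were not available for any difference. Where 3 values are given with no group named, they stand in the order CUG10 + vehicle, CUG300 + vehicle, then CUG300 + CWG-cPIP. Fisher's exact test (two-sided, Benjamini-Hochberg adjusted over all listed events of the same type) compared the reads of 2 libraries, not the conditions.

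Depth was low at these events. Over the 82 chromatin gene events with counts in all 3 libraries, counts summed to 2691 in the CUG10 + vehicle library, 1939 in CUG300 + vehicle and 2622 in CUG300 + CWG-cPIP, with medians of 16.5, 7.5 and 16.5 per event. Medians over all 7659 such events were 22, 13 and 24. The CUG300 + vehicle library stood apart in its cell type markers, expressed as counts at their events per 1000000 event counts (CPM). Neuron markers (6 of 7 listed) stood at 9592, 3373 and 9968 CPM in the 3 libraries. The choroid plexus markers Ttr and Enpp2 (2 of 5 listed) stood at 781, 71285 and 717. The microglia and immune markers (5 of 10 listed) stood at 2771, 19170 and 4850. These 5 were B2m, Cd74, Ctss, H2-D1 and H2-K1, while Cx3cr1, Csf1r, C1qa, C1qb and Tyrobp had no event with counts in all 3 libraries. Oligodendrocyte markers (4 of 6) stood at 8770, 7317 and 9763, endothelial and mural markers (2 of 4) at 47.6, 29.95 and 55.3, and Gfap, the 1 astrocyte marker of 5 that was listed, at 518, 1402 and 961. No listed marker was at 0. These values move with every comparison that uses the CUG300 + vehicle library, their part in the PSI differences was not tested, and CUG300 + CWG-cPIP minus CUG10 + vehicle is the comparison without that library. A change of splicing within cells and a change in the mix of cells cannot be told apart in these bulk samples.

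The event with the largest called difference was a 767-nt exon of Phf14 (chr6:11933253-11934019, + strand, mm10). Phf14 encodes a PHD-finger reader of histone tails. The exon had 60 inclusion and 0 skipping counts in CUG10 + vehicle (PSI 1, interval 0.581 to 1), 73 and 0 in CUG300 + vehicle (PSI 1, 0.629 to 1) and 41 and 5 in CUG300 + CWG-cPIP (PSI 0.419, 0.222 to 0.701). Skipping reads were thus found in the cPIP-treated mouse and in neither other mouse. The exon overlaps the coding sequence, its length is not a multiple of 3, and 2 annotated transcripts skip it, of which 1 is labelled protein coding and 1 NMD. The junction that marks skipping is shown here because the difference rests on its 5 reads, with the end of the upstream exon in lower case and the start of the downstream exon in capitals (spliced from GENCODE M21 transcripts, GRCm38, which is mm10, over chr6:11926814-11941453, + strand).
Phf14 skipping junction: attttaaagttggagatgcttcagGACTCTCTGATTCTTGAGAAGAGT
The PSI difference of CUG300 + CWG-cPIP minus CUG300 + vehicle was -0.58 (interval -0.773 to -0.147, exact p = 0.00751, adjusted exact p = 0.77), and that from CUG10 + vehicle was also -0.58 (interval -0.773 to -0.106, exact p = 0.0135, adjusted exact p = 1). The inclusion form is 841 nt long against 74 nt for the skipping form, so the length correction decides the size: by raw counts inclusion was 100% in both vehicle libraries and 89.1% with cPIP, a difference of -0.109 that lies under the threshold of 0.15 used for calls by size. Depth at both Phf14 events together was similar, with 118, 155 and 125 CPM in the 3 libraries. The other Phf14 exon, of 107 nt, had 12 and 0, 14 and 1, and 24 and 0 counts, with PSI of 1, 0.851 and 1.

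Across all members, events were called by size where the absolute PSI difference exceeded 0.15 and both libraries had at least 20 counts. For CUG300 + vehicle against CUG10 + vehicle, 1 of 17 chromatin gene events was called, and 9.34% of all events of that depth. For CUG300 + CWG-cPIP against CUG300 + vehicle, 3 of 18 were called, all of them lower with cPIP, against a background of 11.3%. For CUG300 + CWG-cPIP against CUG10 + vehicle, 6 of 31 were called, 3 higher and 3 lower with cPIP, against a background of 8.56%. The calls comprised 9 different events in Chd8, Phf14, Phf23, Smarca4, Phf20 and Hdac5, so each share of members called rests on at most 6 events.

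By Fisher's exact test with adjustment, 0 of 67, 0 of 71 and 0 of 84 member events were called in these 3 comparisons, where the background was 0.16%, 0.389% and 0.115%. At an unadjusted exact p below 0.05 the members numbered 2 of 67, 4 of 71 and 4 of 84, against 2.75%, 3.58% and 2.25% of all events. They lay in Brd2, Kat7, Brd9, Kat2a, Phf14, Phf20 and Smarce1. The PSI intervals of a pair of libraries failed to overlap in 0 of the 82 members with 3 PSI values, where the background was 1.34% of the 7659 events with counts in all 3 libraries. The median absolute PSI difference of members with at least 20 counts was 0.0463, 0.0438 and 0.0539 in the 3 comparisons, and 0.0414, 0.0432 and 0.0468 over all events of that depth. Over members of any depth it was 0.157, 0.187 and 0.181, against 0.115, 0.12 and 0.106 over all listed events, and the shallower library had a median of 7, 8 and 12 counts per member event against 13, 12 and 16 per listed event.

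**Figure D1:**
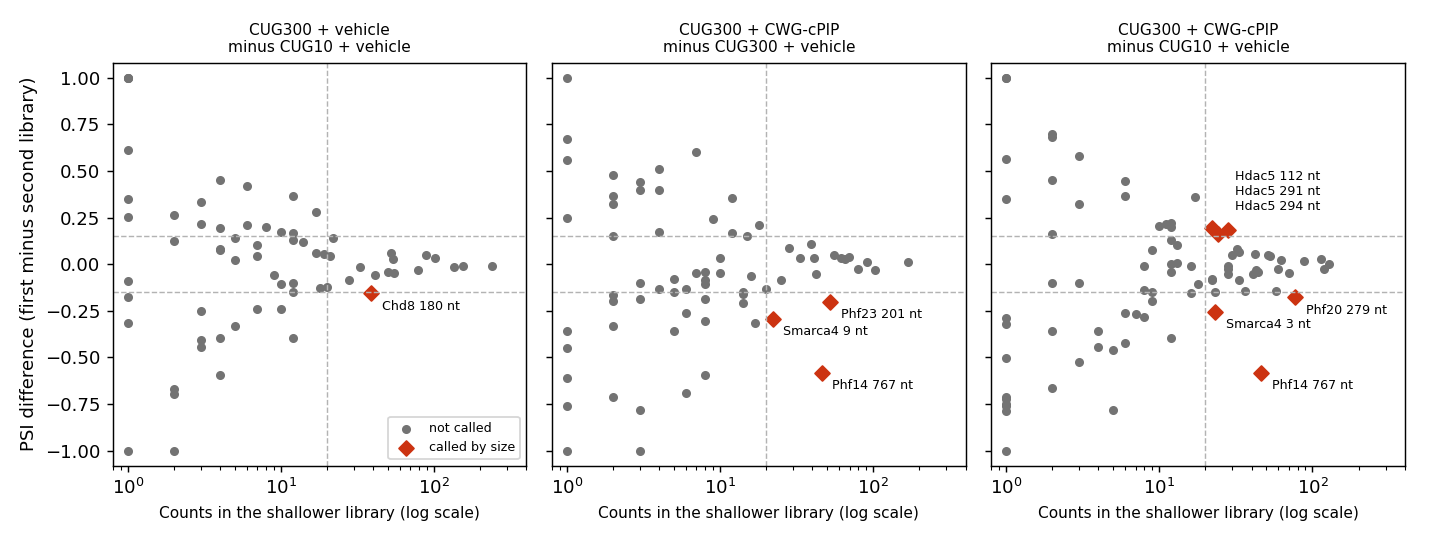
PSI difference of each chromatin gene event (y axis, first minus second library) against the counts of the shallower library of the pair (x axis, log scale), for the 3 comparisons. Dashed lines mark 20 counts and differences of 0.15, and diamonds mark the events called by size, 1, 3 and 6 in the 3 panels, while the widest differences lie at fewer than 20 counts.

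The acetyltransferase and bromodomain genes held the differences between CUG300 + vehicle and CUG10 + vehicle whose intervals excluded 0 at 5 or more counts per library. Kat7 (also known as HBO1) acetylates histones H3 and H4 and works with ING proteins. Its 107-nt coding exon (chr11:95276443-95276549, - strand) has a length that is not a multiple of 3. The exon is present in 5 annotated transcripts and absent from 1, all labelled protein coding. It had 43 inclusion and 1 skipping counts in CUG10 + vehicle, 9 and 3 in CUG300 + vehicle, and 47 and 2 in CUG300 + CWG-cPIP. PSI was therefore 0.946 (0.75 to 0.999), 0.551 (0.234 to 0.876) and 0.906 (0.716 to 0.988), lowest in the untreated CUG300 mouse. The difference of CUG300 + vehicle minus CUG10 + vehicle was -0.395 (interval -0.685 to -0.0745, exact p = 0.0277, adjusted exact p = 1). That of CUG300 + CWG-cPIP minus CUG300 + vehicle was 0.355 (interval 0.0383 to 0.649, exact p = 0.0477, adjusted exact p = 1), and both rest on the same 12 reads of the CUG300 + vehicle library. Without that library, CUG300 + CWG-cPIP minus CUG10 + vehicle was -0.0404 (interval -0.231 to 0.164). Reads at the Kat7 events were also fewer in that library, 91.9, 22.9 and 109 CPM in the 3 libraries.

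Brd2 encodes a bromodomain protein of the BET family, which binds acetylated histones. Its 92-nt exon (chr17:34116598-34116689, - strand) occurs in 1 annotated transcript, an NMD transcript, while 4 protein-coding transcripts skip it. Counts were 2 and 10 in CUG10 + vehicle, 9 and 5 in CUG300 + vehicle, and 24 and 27 in CUG300 + CWG-cPIP, which gave PSI of 0.0819 (0.00941 to 0.295), 0.445 (0.195 to 0.753) and 0.284 (0.18 to 0.416). The NMD form thus made up the smallest fraction in the CUG10 mouse. The difference of CUG300 + vehicle minus CUG10 + vehicle was 0.363 (interval 0.0727 to 0.621, exact p = 0.0214, adjusted exact p = 1). The cPIP-treated library did not separate from either one, with a difference of -0.161 from CUG300 + vehicle (interval -0.43 to 0.0945) and of 0.202 from CUG10 + vehicle (interval -0.00577 to 0.338).

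The exons of Kat7 and Brd2 are shown together with a Kat5 exon and a Chd8 exon described below. Tetramers that MBNL proteins bind are in capitals (TGCT or CGCT, and with C as the last base TGCC or CGCC), as read in the transcript. The sequences are those of GENCODE M21 transcripts (GRCm38).
Kat7 exon: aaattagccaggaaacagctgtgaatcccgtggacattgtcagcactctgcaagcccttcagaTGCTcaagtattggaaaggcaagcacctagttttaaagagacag
Brd2 exon: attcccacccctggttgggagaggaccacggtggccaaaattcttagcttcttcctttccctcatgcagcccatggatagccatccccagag
Kat5 exon: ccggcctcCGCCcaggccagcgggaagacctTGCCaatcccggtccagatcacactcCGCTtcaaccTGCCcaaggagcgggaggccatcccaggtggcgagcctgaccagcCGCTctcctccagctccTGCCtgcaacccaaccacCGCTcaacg
Chd8 exon: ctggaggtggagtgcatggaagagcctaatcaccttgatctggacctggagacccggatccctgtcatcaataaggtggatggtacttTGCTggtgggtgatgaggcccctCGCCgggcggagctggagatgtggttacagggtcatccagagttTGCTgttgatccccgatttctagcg
The Kat7 exon holds 1 such tetramer, the Brd2 exon 0, the Kat5 exon 7 and the Chd8 exon 3. The 51-nt exon of Brd3, described below and not shown, holds 0. Among the 70 different skipped exons of the chromatin genes, 51 (72.9%) held at least 1, and 71.3% of the 5878 exons of all genes did. Among exons of 75 to 150 nt, 68.3% of 41 chromatin exons and 75.7% of 2972 exons of all genes did. Density was 1.38 tetramers per 100 nt in the chromatin exons and 1.51 in all exons. A tetramer is a match of letters in the exon only, and flanking introns were not searched.

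The exons of Kat5, Kat6a and Kat6b and the 90-nt exon of Kat7 had an adjusted exact p of 1 in each comparison that listed them. Kat5 (Tip60), the catalytic subunit of NuA4, was added after its values were seen because its 156-nt exon (chr19:5608802-5608957, - strand) had an intermediate PSI in all 3 libraries. Counts of 20 and 13, 8 and 10, and 22 and 10 gave PSI of 0.331, 0.205 and 0.414. Inclusion was lowest in the untreated CUG300 mouse, but the difference of CUG300 + vehicle minus CUG10 + vehicle was -0.126 (interval -0.324 to 0.0987) and that of CUG300 + CWG-cPIP minus CUG300 + vehicle was 0.21 (interval -0.0333 to 0.421). The 90-nt exon of Kat7 had the same counts, 7 and 5, in CUG10 + vehicle and CUG300 + CWG-cPIP (PSI 0.387 in both) and a single read in CUG300 + vehicle. Kat6a and Kat6b, which encode the MOZ and MORF acetyltransferases, had at most 7 counts per library. The PSI of the 86-nt exon of Kat6a was 0 from a single read in CUG300 + vehicle and 1 from 4 reads in CUG300 + CWG-cPIP, a difference of 1 (interval 0.07 to 1, exact p = 0.2). That of the 133-nt exon of Kat6b was 0 from a single read in CUG10 + vehicle and 1 from 7 reads in CUG300 + CWG-cPIP, a difference of 1 (interval 0.162 to 1, exact p = 0.125). Both intervals left out 0 and neither exact test passed.

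Among the other bromodomain genes, Brd3, a second BET gene, has a 51-nt coding exon whose length is a multiple of 3. It had 4 and 6 counts in CUG10 + vehicle, 1 and 13 in CUG300 + vehicle and 0 and 8 in CUG300 + CWG-cPIP, for PSI of 0.283, 0.0436 and 0. Inclusion was thus highest in the CUG10 mouse, with a difference of CUG300 + CWG-cPIP minus CUG10 + vehicle of -0.283 (interval -0.566 to -0.00014, exact p = 0.0915, adjusted exact p = 1). The interval ended just below 0 and the exact test did not pass. Brd7, a subunit of the PBAF complex, had the deepest bromodomain exon, of 112 nt, and it was included nearly throughout, with PSI of 0.944, 1 and 1 and 1 skipping read in all. For Brd8, a NuA4 subunit, the 219-nt exon had PSI of 0.57, 0.735 and 0.431 over 25, 12 and 8 counts, and the intervals overlapped widely.

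Several members were acceptor sites that lie a few nucleotides apart. Of the 13 alternative 3' splice sites of chromatin genes, 9 were at most 12 nt apart and 7 were exactly 3 nt apart, compared with 438 and 315 of the 942 sites of all genes. At the 3-nt sites the choice adds or removes the trinucleotide CAG, and 1 residue or a codon change at the exon junction, without a shift of the reading frame. The events with the most reads are shown with the end of the upstream exon and the start of the shared exon in lower case (24 nt each) and the optional bases in capitals, and the coordinates are those of the capitals (GENCODE M21 transcripts, GRCm38).
Brd9, chr13:73942691-73942693, + strand: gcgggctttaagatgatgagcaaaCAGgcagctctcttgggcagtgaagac
Kat2a, chr11:100708983-100708985, - strand: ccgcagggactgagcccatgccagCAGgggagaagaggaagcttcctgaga
Smarca4 3 nt, chr9:21699800-21699802, + strand: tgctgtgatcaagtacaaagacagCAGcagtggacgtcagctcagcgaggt
Smarca4 9 nt, chr9:21686013-21686021, + strand: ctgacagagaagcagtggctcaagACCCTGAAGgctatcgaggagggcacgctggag
Hdac5 3 nt, chr11:102218488-102218490, - strand: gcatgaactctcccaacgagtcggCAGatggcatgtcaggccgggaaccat
Phf1 3 nt, chr17:26937054-26937056, + strand: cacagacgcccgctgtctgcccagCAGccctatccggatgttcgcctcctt

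Brd9, which encodes a subunit of the non-canonical BAF complex, used the longer form in 21 of 26 reads in CUG10 + vehicle, in 8 of 8 in CUG300 + vehicle and in 5 of 12 in CUG300 + CWG-cPIP. PSI was 0.801 (0.597 to 0.932), 1 (0.621 to 1) and 0.407 (0.147 to 0.715), lowest in the cPIP-treated mouse. CUG300 + CWG-cPIP minus CUG300 + vehicle was -0.593 (interval -0.813 to -0.167, exact p = 0.0147, adjusted exact p = 0.727), and that from CUG10 + vehicle was -0.394 (interval -0.64 to -0.0688, exact p = 0.0258, adjusted exact p = 1). CUG300 + vehicle minus CUG10 + vehicle was 0.199 (interval -0.152 to 0.388).

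Kat2a (GCN5), the acetyltransferase of the SAGA complex, had 5 and 7 counts in CUG10 + vehicle, 5 and 1 in CUG300 + vehicle and 1 and 6 in CUG300 + CWG-cPIP. PSI was 0.407, 0.828 and 0.138, highest in the untreated CUG300 mouse. CUG300 + CWG-cPIP minus CUG300 + vehicle was -0.69 (interval -0.871 to -0.147, exact p = 0.0291, adjusted exact p = 0.746), a difference that rests on 7 and 6 reads. CUG300 + CWG-cPIP minus CUG10 + vehicle was -0.269 (interval -0.557 to 0.157).

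Smarca4 (BRG1), a catalytic ATPase of BAF, has a pair of these sites. At the 9-nt site the longer form had 19 of 35 reads in CUG10 + vehicle, 15 of 22 in CUG300 + vehicle and 9 of 23 in CUG300 + CWG-cPIP, for PSI of 0.514, 0.656 and 0.364. CUG300 + CWG-cPIP minus CUG300 + vehicle was -0.292 (interval -0.522 to -0.000952, exact p = 0.0746, adjusted exact p = 1), which was called by size. At the 3-nt site PSI was 0.865, 0.743 and 0.608 over 23, 20 and 34 reads. There the call came from CUG300 + CWG-cPIP minus CUG10 + vehicle, with a difference of -0.257 (interval -0.446 to -0.0135, exact p = 0.0695, adjusted exact p = 1). At both sites the cPIP-treated mouse had the lowest PSI and all 3 intervals overlapped. A 250-nt exon of Smarca4 was included in all but 1 of 80 reads over the 3 libraries.

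The remaining tandem acceptors had fewer reads or little variation. At the 3-nt site of Phf1, which encodes a Polycomb-like partner of PRC2, the longer form had 17 of 18, 17 of 17 and 15 of 16 reads. Hdac5 had PSI of 0.366, 0.49 and 0.325 over 16, 2 and 12 reads, and Chd6 had 1 of 1, 3 of 3 and 0 of 3 reads for the longer form. Phf21a, which encodes a subunit of the LSD1-CoREST complex, had 0 of 1 and 4 of 7 reads in CUG10 + vehicle and CUG300 + CWG-cPIP. The 11-nt site of Phf1 had at most 3 reads per library. Tandem acceptors were grouped after their values were seen, so their direction is a description without a test. For CUG300 + CWG-cPIP minus CUG300 + vehicle, 7 of 8 listed member sites of any depth had a lower PSI with cPIP, and 196 of 356 tandem sites of all genes (55.1%) did. With at least 5 reads in each library, all 5 member sites were lower, against 105 of 183 of all genes (57.4%). For CUG300 + CWG-cPIP minus CUG10 + vehicle, 7 of 9 listed member sites of any depth were lower against 189 of 398 (47.5%). For CUG300 + vehicle minus CUG10 + vehicle, 6 of 7 were higher against 184 of 348. The 3 comparisons share libraries, so these counts do not add to each other.

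**Figure D2:**
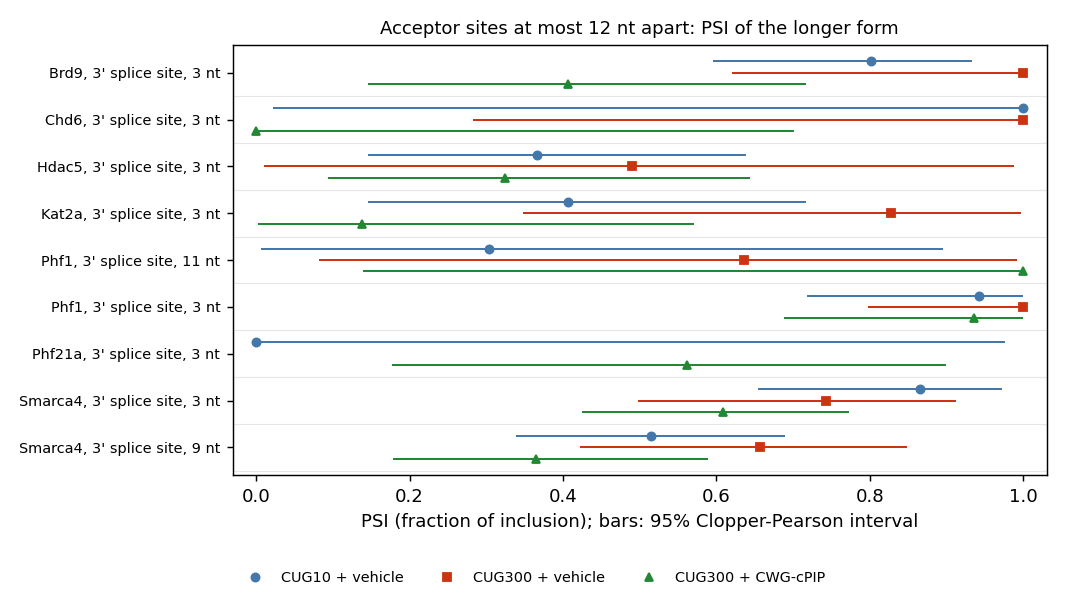
PSI of the longer form (x axis, fraction) at the 9 acceptor sites of chromatin genes that are at most 12 nt apart, in the 3 libraries. Points are PSI from 1 mouse each and bars are 95% Clopper-Pearson intervals, and the CUG300 + CWG-cPIP points of Brd9, Kat2a and Smarca4 lie to the left of both other libraries with overlapping bars.

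The other BAF subunit named by rule for a difference was Smarce1 (BAF57), which has a 105-nt exon with 9 and 0 counts in CUG10 + vehicle, 3 and 0 in CUG300 + vehicle and 2 and 3 in CUG300 + CWG-cPIP, for PSI of 1, 1 and 0.216. The difference of CUG300 + CWG-cPIP minus CUG10 + vehicle was -0.784 (interval -0.948 to -0.159, exact p = 0.0275, adjusted exact p = 1), from 5 and 9 reads. The transcript that skips this exon is annotated, and not as protein coding. In Smarcd3, a subunit that differs between BAF assemblies, the 123-nt exon had PSI of 1, 0.953 and 1 over 75, 55 and 66 reads. The 117-nt exon of its paralog Smarcd1 had 1, 0.913 and 1 over 84, 28 and 73. At each exon the value below 1 came from 1 skipping read, and neither skipping junction was annotated.

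Smarcb1 and Smarcc2 were added after their values were seen, as core BAF subunits with intermediate PSI. Smarcb1 (BAF47) chooses between 5' splice sites 27 nt apart (chr10:75916773-75916799, - strand), and its optional bases, in capitals between the shared exon bases, start with GT (GENCODE M21, GRCm38).
Smarcb1: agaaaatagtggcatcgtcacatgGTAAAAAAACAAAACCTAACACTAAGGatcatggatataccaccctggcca
The longer Smarcb1 form had 25 and 8, 8 and 4, and 39 and 9 counts, so that PSI was 0.696, 0.594 and 0.76 with overlapping intervals. The Smarcc2 (BAF170) site of 342 nt had 30 and 13, 15 and 2, and 39 and 20 counts, for PSI of 0.291, 0.572 and 0.258. The CUG300 + vehicle value was the highest of the 3, with differences of 0.281 from CUG10 + vehicle (interval -0.0694 to 0.571) and of -0.314 for CUG300 + CWG-cPIP minus CUG300 + vehicle (interval -0.596 to 0.0235). Neither passed the count minimum, since 17 reads stood behind the CUG300 + vehicle value. Smarca2 (BRM), the other BAF ATPase, had at most 7 reads per library at a 35-nt exon that 9 of its annotated transcripts skip, with PSI of 0.102, 0.184 and 0.

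The deacetylases had the most events, 26 in 7 genes, and Hdac5 had 16 of them. Hdac5 is a class IIa deacetylase that moves between nucleus and cytoplasm with neuronal activity. Its 112-nt exon (chr11:102213925-102214036, - strand) occurs in 1 annotated transcript, labelled NMD, and 7 transcripts skip it. The exon up to its annotated stop codon is shown because inclusion ends the reading frame (chr11:102213936-102214036, GENCODE M21, GRCm38), with the stop codon in capitals.
Hdac5 112-nt exon: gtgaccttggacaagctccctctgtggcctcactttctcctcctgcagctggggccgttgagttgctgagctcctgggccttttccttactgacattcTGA
This exon had 9 and 19 counts in CUG10 + vehicle, 2 and 7 in CUG300 + vehicle and 17 and 13 in CUG300 + CWG-cPIP. PSI was 0.159 (0.0698 to 0.304), 0.102 (0.0114 to 0.374) and 0.342 (0.192 to 0.538), highest in the cPIP-treated mouse. CUG300 + CWG-cPIP minus CUG10 + vehicle was 0.184 and was called by size, but its interval held 0 (-0.00701 to 0.372, exact p = 0.071, adjusted exact p = 1). Against CUG300 + vehicle the difference was 0.24 (interval -0.022 to 0.428).

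The other Hdac5 size calls came from 1 stretch of the gene (chr11:102218416-102218781) in which exons of 72, 75 and 366 nt and acceptors 3, 291 and 294 nt apart were listed as separate events, so they share reads. The 291-nt site had 22 and 6, 4 and 1, and 21 and 3 counts, with PSI of 0.426, 0.448 and 0.587, and the first of the 294-nt sites had 21 and 1, 4 and 0, and 23 and 0, with PSI of 0.808, 1 and 1. Both were called for CUG300 + CWG-cPIP minus CUG10 + vehicle, with differences of 0.16 (interval -0.189 to 0.459) and 0.192 (interval -0.287 to 0.581), and both intervals held 0. By raw counts inclusion was 78.6% and 87.5% at the 291-nt site and 95.5% and 100% at the 294-nt site in these libraries, and neither would be called. Constitutive Hdac5 exons carried most reads. The 119-nt exon had 244, 240 and 169 reads of which 1 was a skipping read, and the 172-nt exon had 113, 54 and 147 of which 1 was. A 5' splice site choice of 4 nt had a low PSI of 0.037, 0.0286 and 0.0614 over 154, 199 and 62 reads, and was the deepest member with a minor inclusion form.

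**Figure D3:**
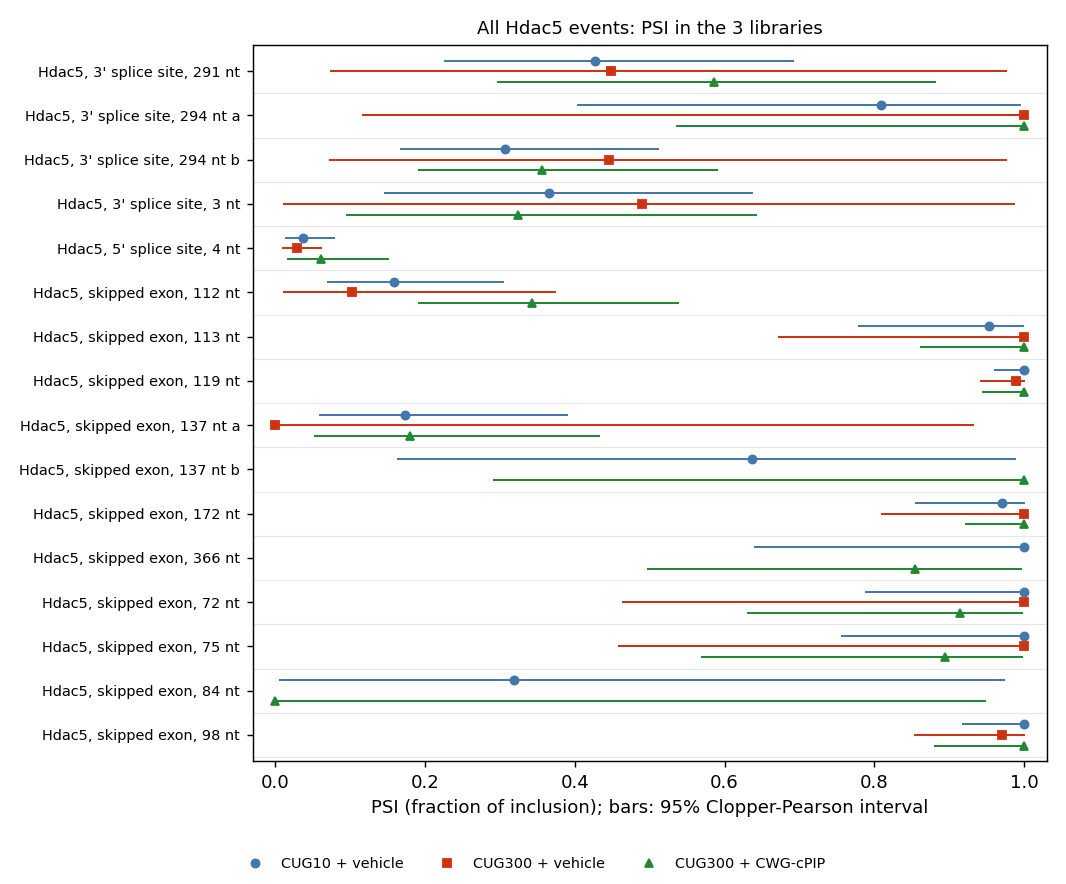
PSI (x axis, fraction) of all 16 Hdac5 events in the 3 libraries, with 95% Clopper-Pearson intervals as bars and 1 mouse per point. Exons of 98, 113, 119 and 172 nt sit near 1 in all libraries, the 4-nt 5' splice site near 0, and the 112-nt exon is highest in CUG300 + CWG-cPIP with overlapping bars.

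Class I deacetylases showed almost no skipping. Hdac2, which restrains memory-related genes in the hippocampus, had 119, 80 and 120 reads at a 142-nt exon and 1 skipping read, and Hdac1 had 35, 25 and 33 reads at an exon of the same length and 1 skipping read. Hdac10 retained a 278-nt intron with PSI of 0.123, 0.296 and 0.329 over 10, 12 and 10 reads, and the intervals overlapped. Hdac4, Hdac6 and Hdac9 had at most 8 reads per library at any event.

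Among the CHD remodelers, Chd8 gave the 1 size call of CUG300 + vehicle against CUG10 + vehicle. Chd8, an ATP-dependent remodeler known for its role in autism, has a 180-nt coding exon (chr14:52202144-52202323, - strand) of a length that is a multiple of 3 and that 1 annotated transcript skips. Counts were 70 and 0 in CUG10 + vehicle, 37 and 2 in CUG300 + vehicle and 72 and 1 in CUG300 + CWG-cPIP, for PSI of 1 (0.843 to 1), 0.844 (0.582 to 0.979) and 0.955 (0.785 to 0.999). The difference of CUG300 + vehicle minus CUG10 + vehicle was -0.156, just past the threshold, on 2 skipping reads (interval -0.411 to 0.0361, exact p = 0.126, adjusted exact p = 1). The call was absent by raw counts and with form lengths of 150-nt reads. Chd3, a NuRD ATPase, had the deepest events of the family and hardly varied, with PSI of 1, 0.986 and 1 at a 113-nt exon over 134, 174 and 91 reads and of 0.948, 0.931 and 0.964 at a 102-nt exon. Chd5, its relative in neurons, had PSI of 0.846 and 0.836 in CUG10 + vehicle and CUG300 + CWG-cPIP over 30 and 28 reads, and 0.439 over 3 reads in CUG300 + vehicle.

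PHD-finger genes other than Phf14 gave a call each in Phf23 and Phf20. At Phf23 an acceptor choice of 201 nt (chr11:69998301-69998501, + strand) had 57 and 1 counts in CUG10 + vehicle, 52 and 0 in CUG300 + vehicle and 58 and 4 in CUG300 + CWG-cPIP. PSI was 0.939, 1 and 0.796, lowest with cPIP, and CUG300 + CWG-cPIP minus CUG300 + vehicle was -0.204 (interval -0.404 to 0.0405, exact p = 0.124, adjusted exact p = 1). By raw counts inclusion was 98.3%, 100% and 93.5%, which would not be called. Phf20, a Tudor and PHD-finger protein that works with the acetyltransferase MOF, has adjacent exons of 279 nt (chr2:156287801-156288079, + strand) and 99 nt that were listed as mutually exclusive. The PSI listed for the 279-nt exon was 0.573 (0.461 to 0.685, 74 and 27 counts) in CUG10 + vehicle and 0.395 (0.289 to 0.514, 44 and 33 counts) in CUG300 + CWG-cPIP, a difference of -0.178 (interval -0.321 to -0.0232, exact p = 0.0263, adjusted exact p = 0.381). The counts include reads inside each exon, which do not tell exclusive forms from transcripts that hold both exons. No value of this event was listed for CUG300 + vehicle. Neither exclusive form is annotated, and as skipped exons both exons were included nearly throughout, with PSI of 0.949, 1 and 1 for the 279-nt exon and 1, 1 and 0.946 for the 99-nt exon.

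The other PHD-finger events had few reads, apart from Phf11d. Phf11d was added after its values were seen because its depth differed between libraries, with 115 inclusion and 5 skipping counts in CUG300 + vehicle, 12 and 2 in CUG300 + CWG-cPIP, and no listed value in CUG10 + vehicle. PSI at its 132-nt exon was 0.892 and 0.683 (difference -0.209, interval -0.547 to 0.0333). The library with most of these reads is the one in which the 5 measured microglia and immune markers were at 19170 CPM. Their part in this difference was not tested. At a 78-nt exon of Phf20l1, the paralog of Phf20, PSI was 0.226, 0.268 and 0.218 over 8, 7 and 11 reads.

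No demethylase event could be called by size, since 0 had 20 counts in both libraries of a pair. The methyltransferases had 2, 2 and 3 events of that depth in the 3 comparisons. Of these 0 were called by size, where the background was 9.34%, 11.3% and 8.56%. The adjusted exact test called 0 events of either family. Kdm3b, a histone lysine demethylase, had 16 and 1, 6 and 1, and 37 and 0 counts at a 600-nt exon. PSI of 0.637, 0.397 and 1 came from 2 skipping reads in all, and the interval of CUG300 + CWG-cPIP minus CUG300 + vehicle ran from -0.0325 to 0.906. Setd3, which methylates a histidine of actin, had the deepest event of its group. Its 149-nt exon, which 2 NMD transcripts skip, had PSI of 0.909 (0.808 to 0.969), 0.943 (0.817 to 0.993) and 0.912 (0.798 to 0.975) over 156, 102 and 129 reads. The differences at this exon were at most 0.0339 in size, with intervals that reached from -0.151 to 0.142 over the 3 comparisons. Kmt2c, Kmt2d and Kmt2e, large methyltransferases of the MLL family, had at most 13 reads per library at any event.

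ING readers had 1 deep event. Ing4, a subunit of KAT7 complexes, had 50, 72 and 69 reads at a 148-nt exon with 1 skipping read, for PSI of 1, 0.96 and 1. Ing3, a NuA4 subunit, had PSI of 1, 0.67 and 0.336 at a 72-nt exon over 8, 5 and 2 reads, and Ing1 had 1, 0.558 and 1 over 5, 3 and 6.

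**Figure D4:**
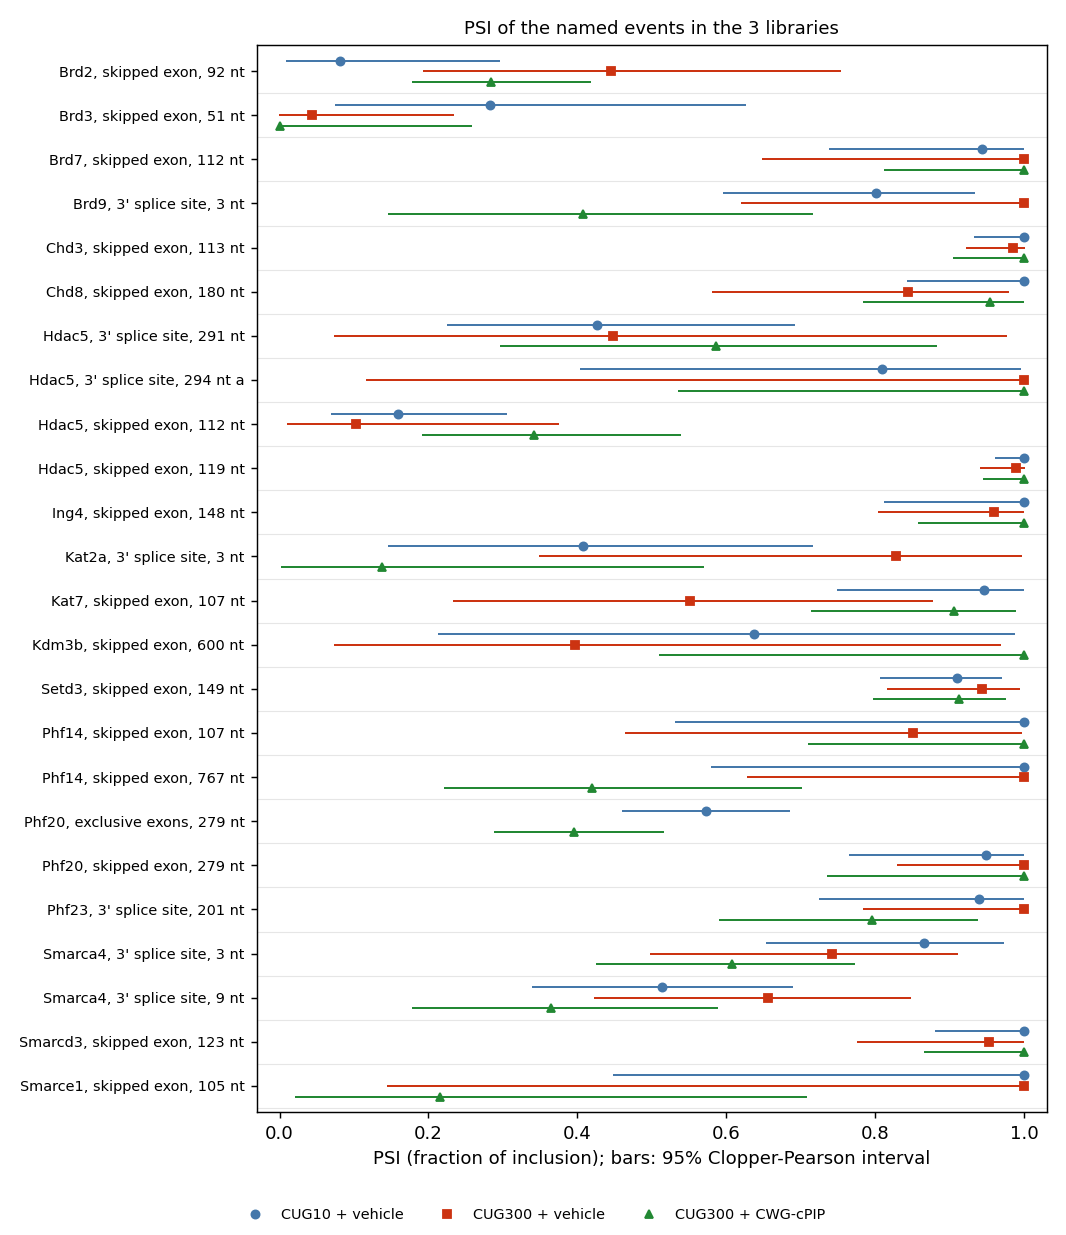
PSI (x axis, fraction) of the 24 chromatin gene events named by rule, in the 3 libraries, with 95% Clopper-Pearson intervals as bars and 1 mouse per point. The exons of Chd3, Hdac5 (119 nt), Ing4, Setd3 and Smarcd3 sit above 0.9 in all libraries.

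Features that the choice of genes did not use were close to those of all skipped exons. Of the 76 skipped exons, 34 (44.7%) had a length that is a multiple of 3, against 48.1% of all, and 69 (90.8%) overlapped coding sequence, against 88.2%. The skipping junction was annotated for 39 (51.3%), against 50.2%. For the other 37 the skipping form was rare: in 28 of them (75.7%, against 70.3% over all genes) a single skipping read stood in the 3 libraries together, and the highest number was 7. An event is listed for a pair of libraries only where both forms have a read, so these single reads decide which constitutive exons are listed at all.

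Chromatin genes outside the symbol rule were counted by the same calls, from a list that holds Polycomb, BAF, NuRD, DNA methylation and corepressor genes. They had 84 events in 43 genes. Size calls numbered 3 of 24, 2 of 17 and 3 of 26 in the 3 comparisons, in the order used above. The share over all events of that depth was 9.34%, 11.3% and 8.56%. The adjusted exact test called 0 of 63, 0 of 55 and 0 of 73, against 0.16%, 0.389% and 0.115% of all events. At an unadjusted exact p below 0.05 they numbered 2, 2 and 0, against 2.75%, 3.58% and 2.25% of all events. The size calls were in Actl6b, Cbx3 and Ehmt2 for CUG300 + vehicle against CUG10 + vehicle, in Kansl2 and Ehmt2 for CUG300 + CWG-cPIP against CUG300 + vehicle, and in Ncor1, Kansl2 and Tada2a for CUG300 + CWG-cPIP against CUG10 + vehicle.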

How the data were processed

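Hippocampal RNA of 3 mice, 1 in each of 3 groups, was analysed from 15 splicing tables, 5 event types for each of 3 pairs of libraries. Per the labels, total RNA was made into directional libraries, and the submitters' processing notes name Trim Galore 0.6.6, STAR 2.7.9a, RSEM 1.3.3, DESeq2 1.36.0 (for gene expression, not used here) and the build mm10. The splicing tables came from rMATS 4.1.2, as the methods of the study state. The authors deposited, for each event and library, the counts of inclusion and skipping reads on junctions and inside the alternative region, with no normalization. They also deposited the inclusion level (PSI) as a fraction from 0 to 1, and the effective form lengths in nt. The form lengths correspond to 75-nt reads while the methods give 150 nt, and this was not resolved. Columns of the authors' own comparisons (a p-value, an FDR and a PSI difference from the rMATS test) were not used.

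PSI recomputed from counts and lengths deviated from the deposited fraction by at most 0.0005 over 39850 values, and the counts of a library in its 2 tables were identical in 14737 of 14737 comparisons. Entries of different tables were taken as the same event where gene, strand and coordinates were equal. Intervals, Fisher's exact tests and Benjamini-Hochberg adjustment over all listed events of a type were computed with Python 3.11.15, numpy 2.4.6, pandas 2.3.3 and scipy 1.17.1, after a test on simulated data with known answers, and figures were drawn with matplotlib 3.10.9. Depth per library was 609546, 567697 and 560672 counts over events with counts in all 3, in the order CUG10 + vehicle, CUG300 + vehicle, CUG300 + CWG-cPIP. Named were events called by size or by the adjusted exact test, events with a PSI difference above 0.15, at least 5 counts in each library and a Newcombe interval that excludes 0 (at most 30), all Phf14 events, and the deepest event of each family. This rule named 24 events, which are those in the plot of PSI of the events named by rule. The events of Kat5, Smarcb1, Smarcc2 and Phf11d and the grouping of tandem acceptors are marked in the text as made after values were seen. All other events described lie outside the rule and carry no mark. Examples are those of Hdac1, Hdac2, Hdac10, Chd5, Brd8, Smarcd1, Kat6a, Kat6b, Ing1 and Ing3. The members and gene lists were chosen with earlier results of these data known. Annotation and sequences were taken from GENCODE M21 (GRCm38), in which all 56 genes and the ends of 76 of 76 skipped exons were found. Intron sequence was not used here, so the planned motif search in flanking introns was not run. Coordinates are 1-based.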

Additional observations from a re-analysis of the deposited data

How the results depend on the processing

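Calls by size depended on the count minimum and the threshold, while the adjusted exact test called 0 member events in each comparison under each adjustment and without a size threshold. For CUG300 + vehicle minus CUG10 + vehicle, the 1 size call became 7 at 10 counts and 3 at a difference above 0.1, and 0 at 50 counts, above 0.2, by raw shares and with form lengths of 150-nt reads (chosen after seeing the data). For CUG300 + CWG-cPIP minus CUG300 + vehicle, the 3 became 9 at 10 counts, 5 above 0.1, and 1 at 50 counts and by raw shares. For CUG300 + CWG-cPIP minus CUG10 + vehicle, the 6 became 13 at 10 counts, 1 at 50 counts, and 2 above 0.2, with 1 event per gene and among events listed in all 3 pairs. Shares of all events were not computed at these alternative settings. The counts of member calls there can therefore not be set against those of all genes. Median absolute differences moved in the same 3 comparisons from 0.0463 to 0.0873 at 10 counts, 0.0139 by raw shares and 0.0606 among events listed in all pairs, from 0.0438 to 0.0836 at 10 counts, 0.0311 at 50 counts, 0.021 by raw shares and 0.0722 among events listed in all pairs, and from 0.0539 to 0.0288 at 50 counts, 0.0268 by raw shares, 0.041 with 150-nt lengths and 0.043 among events listed in all pairs. Of 59 PSI differences of named events, 0 changed sign under raw shares or 150-nt lengths and 2 did with a pseudocount of 0.5, both at Hdac5 acceptor sites in CUG300 + vehicle minus CUG10 + vehicle and with intervals that hold 0, from 0.192 to -0.0983 at the first of the 294-nt sites and from 0.0214 to -0.0342 at the 291-nt site. The value under an alternative lay outside the interval of the difference in 1, Phf14 at 767 nt by raw shares (-0.109). The cause was not tested beyond these constructions. With a median of 7.5 to 16.5 counts per member event, differences below the width of the intervals were not detectable at this depth. No paired analysis was possible because each group holds 1 mouse.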
